A study of Mus musculus with 4 samples.

Results

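Jagn1, Trip11 and 8 further genes of Golgi membrane tethering and transport were followed through a PRO-seq experiment in mouse embryonic stem (mES) cells that lose the zinc-finger protein Zfp574. The genes were taken by symbol, all 10 were among the 12486 genes of the count table, and all 10 passed the filter on low counts that left 11853 genes for testing. Jagn1 and Trip11 were chosen by their fall in this same contrast, in which earlier results had placed them among the genes lower after depletion. Their values are therefore given as a description, without a p-value. The SEs and intervals printed for them do not allow for this choice. The other 8 genes (Golga2, Golga3, Golga5, Golgb1, Gcc2, Uso1, Gorasp2 and Copa) were chosen by function, with results of these data already known.

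The libraries came from 1 AID-Zfp574 line of diploid mES cells of the AN3-12 type, derived from haploid HMSc2 cells. All 4 libraries share the same genotype: an N-terminal auxin-inducible degron (AID) on Zfp574 in the OsTir1 parental line, in which an EF1a-driven cassette supplies the plant F-box protein that binds auxin and sends the tagged protein to the proteasome. The control group (0 h, n = 2) received no indole-3-acetic acid (IAA), and the depletion group (6 h, n = 2) received 500 µM IAA for 6 h. Both groups are described as biological replicates, and untagged cells given IAA were not analysed here. PRO-seq marks the 3′ end of RNA that engaged polymerase extends in isolated nuclei, so a count reflects transcription in progress and not the amount of mature RNA or protein.

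Secretory proteins leave the endoplasmic reticulum (ER) in COPII-coated carriers, reach the Golgi, and their transport machinery is returned to the ER in COPI-coated vesicles. Tethers catch these vesicles before fusion. Golgins are long coiled-coil tethers anchored to Golgi membranes, whereas multi-subunit tethers such as COG, TRAPP, GARP and the NRZ complex act as assemblies. Jagn1 is a multi-spanning ER membrane protein of the early secretory pathway, best known because its loss causes a congenital neutropenia. Trip11 encodes GMAP-210, a cis-Golgi golgin that captures small, highly curved vesicles and whose loss in humans causes a lethal skeletal dysplasia.

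The promoters of Jagn1 and Trip11 are shown first because these are the genes of the group whose transcription was lower after depletion. They also share a short sequence near a RefSeq start. RefSeq promoters on GRCm38 (mm10), running from 250 bases before to 50 after each start, were matched by symbol for 9 of the 10 genes, in 11 windows. Both promoters hold the hexamer ATAGAG, searched on both strands, which was picked among the hexamers that both hold. None of the other 7 genes with a promoter holds it. Since only 8.41% of all tested symbols with a promoter hold it, nothing is read from that absence. Stretches of 150 bases, 120 before and 30 from the start on, are printed 5′ to 3′ on the strand of each gene, with ATAGAG, its reverse complement CTCTAT, or the related CTAGAG and CTCTAG in capitals. Jagn1 is at chr6:113442449-113442598 (plus strand), Trip11 at chr12:101913142-101913291 (minus strand), and Gorasp2, shown as a tethering gene without a match, at chr2:70661389-70661538 (plus strand).
Jagn1: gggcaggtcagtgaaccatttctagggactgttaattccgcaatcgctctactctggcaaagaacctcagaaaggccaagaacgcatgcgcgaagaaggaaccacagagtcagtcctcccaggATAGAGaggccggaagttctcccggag
Trip11: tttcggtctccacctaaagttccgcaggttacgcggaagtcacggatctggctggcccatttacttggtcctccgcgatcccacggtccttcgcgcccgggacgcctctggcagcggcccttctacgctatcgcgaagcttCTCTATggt
Gorasp2: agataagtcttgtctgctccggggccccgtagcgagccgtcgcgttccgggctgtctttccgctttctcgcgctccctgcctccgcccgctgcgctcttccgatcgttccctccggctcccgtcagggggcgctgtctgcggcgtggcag

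The match lay 3 bases after 1 RefSeq start in Jagn1 (chr6:113442572-113442577) and 21 bases after the RefSeq start in Trip11 (chr12:101913145-101913150). The GENCODE start of Trip11, at chr12:101913267, lies further upstream, so its distance depends on the start taken. GENCODE M21 places both in exon 1, in the untranslated part. A second, overlapping Jagn1 window ends before its match. The hexamer was picked after the values were seen, as the one of 51 hexamers common to both promoters whose share differed most between genes called lower and all genes. It was held by 15 of the 32 other genes called lower that had a promoter (46.9%) and by 782 of 9295 tested symbols (8.41%). A match within 50 bases of the start was seen in 9 of those 32 genes (28.1%) and in 238 of the 9295 (2.56%). The related hexamer CTAGAG was in the promoters of 19 of the 32 genes (59.4%) and of 1609 of the 9295 (17.3%), and in none of the 9 genes described here that had one. CTAGAG, too, was picked after the values were seen. Of the hexamers not common to both promoters, its share differed most between these same sets of genes. The choice itself thus favoured large differences for both hexamers, also for the matches within 50 bases of the start. The shares are given as a description, and no support is drawn from them. ATAGAG and CTAGAG share the letters TAGAG. These matches are letters in a window, and binding of Zfp574 to them was not tested here. The paper mapped Zfp574 binding by Cut&Run and placed most sites close to promoters. It also reported a strong effect of depletion on genes bound at their promoter. Whether the promoters shown here are bound was not examined.

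Total counts were 3298864 and 3616429 at 0 h and 6045216 and 5670904 at 6 h. Zfp574 itself had 80 and 130 counts at 0 h and 195 and 219 at 6 h (log2 fold change 0.25, SE 0.14, adjusted p = 0.406, edgeR's quasi-likelihood F test), which does not measure the protein that the degron removes. Of 10 embryonic stem cell markers, 7 were in the table, led by Esrrb at 1764 ± 4.14 CPM (counts scaled to a common library size; SD, n = 2) at 0 h and 1744 ± 9.88 CPM at 6 h. Utf1 fell (log2 fold change -0.61, SE 0.12, adjusted p = 0.00358, edgeR), and the other 6 markers ranged from -0.13 to 0.10 on that scale and did not pass. Of 12 markers of other cell types, 4 were in the table and 3 were tested; Sox1 was at 24.8 and 25.7 CPM, Eomes at 7.96 and 8.67 CPM and Pax6 at 8.31 and 12.5 CPM in controls and depletion (adjusted p from 0.224 to 0.893), and Sox17, below the filter, had 1 to 8 counts per library. The part of these markers in the results below was not tested.

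Jagn1 (ENSMUSG00000051256, mm10 chr6:113442569-113448229, plus strand, protein-coding) had 77 and 74 counts at 0 h and 27 and 32 at 6 h. The counts were lower after depletion even though the depletion libraries were deeper. On the CPM scale, with library sizes adjusted by TMM, the values were 23.1 and 20.2 at 0 h, against 4.54 and 5.70 at 6 h. Both depletion libraries thus lay far below both controls. The means were 21.7 ± 2.08 CPM and 5.12 ± 0.820 CPM (SD, n = 2 each), and the log2 fold change was -2.08 (SE 0.21, 95% interval -2.50 to -1.65), so that depleted cells kept 23.7% of the control signal. The interval does not allow for the choice of Jagn1 on this contrast. In bulk nuclei, fewer cells transcribing a gene and less transcription per cell cannot be told apart.

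Trip11 (ENSMUSG00000021188, chr12:101834043-101913267, minus strand, protein-coding) had 75 and 83 counts at 0 h and 62 and 65 at 6 h. Its levels were 22.5 and 22.7 CPM at 0 h and 10.4 and 11.6 CPM at 6 h, so its replicates were close and the groups did not overlap. The mean went from 22.6 ± 0.0803 CPM to 10.99 ± 0.815 CPM (SD, n = 2 each). The log2 fold change was -1.04 (SE 0.17, 95% interval -1.39 to -0.69), or 48.6% of control. This interval does not allow for the choice of Trip11 on this contrast. Trip11 thus sat next to the 2-fold line that defines the called genes, and it was just short of it, at -0.96, without depletion replicate 1. The last genes inside that line were Trip11 and Pars2 (-1.02), and the first outside were Srp68 (-0.99) and Zfp62 (-0.98).

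**Figure D1:**
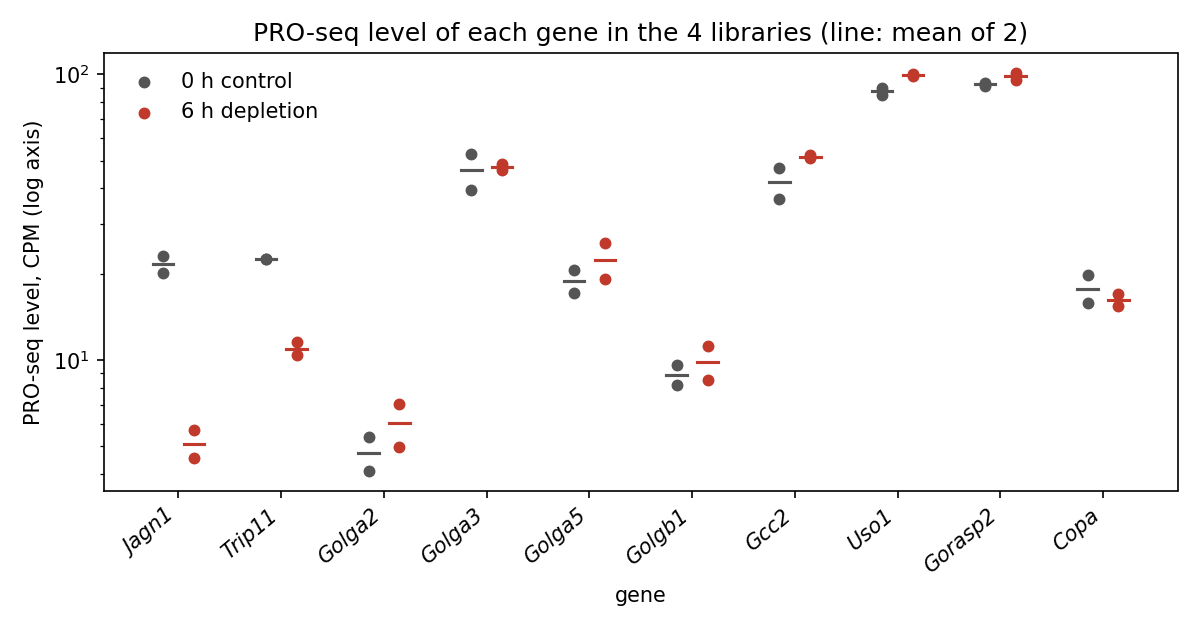
PRO-seq level in CPM (log axis) of the 10 genes, with each point 1 library and each line the mean of the 2 libraries of a group. Jagn1 and Trip11 have both depletion libraries below both controls, Gcc2, Uso1 and Gorasp2 have both above, and the other 5 genes overlap.

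Shares of the summed counts of the 10 genes do not depend on library scaling. That sum holds Jagn1 and Trip11 themselves, so the fall of each also enters the share of the other. Jagn1 made up 6.33% of all counts of the 10 genes in control replicate 1 (95% exact binomial interval 5.03 to 7.84%) and 5.62% in control replicate 2 (4.44 to 7.00%). After depletion it made up 1.24% (0.815 to 1.79%) and 1.54% (1.06 to 2.17%). Trip11 made up 6.16% (4.88 to 7.66%) and 6.30% (5.05 to 7.75%) in the controls, against 2.83% (2.18 to 3.62%) and 3.14% (2.43 to 3.98%) after depletion. The intervals cover counting error only, and these shares describe genes chosen on this contrast.

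Across the table, 38 of 11853 genes were lower by at least 2-fold at an adjusted p under 0.05 (0.321%), and 0 were higher by as much in edgeR or in DESeq2 (7 at an unadjusted p under 0.05 in edgeR). Of the 10 genes, 2 were called, which are those chosen on this contrast, so nothing is read from that share. With the fold threshold dropped, 166 genes (1.4%) were lower and 132 (1.11%) higher, and no further gene of the 10 joined in either direction in edgeR or DESeq2, while Gcc2 and Uso1 were higher at an unadjusted p under 0.05 in edgeR, as were 8.53% of all genes. That split of lower and higher genes moved with the scaling, to 202 and 64 with library totals and 698 and 49 with size factors recovered from the authors' table. Both depletion libraries lay below both controls in 22.9% of all genes tested and in 2 of the 10, and above them in 23.4% of all genes and in 3 of the 10 (Gcc2, Uso1 and Gorasp2).

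Among the golgins of the cis-Golgi, Golga2 encodes GM130, which docks incoming vesicles together with p115. It was sparsely covered, with 18 and 15 counts at 0 h and 42 and 28 at 6 h (5.41 and 4.09 against 7.06 and 4.98 CPM). The groups overlapped, and the log2 fold change of 0.36 (SE 0.30) did not pass the test (adjusted p = 0.613, edgeR). Golgb1, which encodes giantin, the longest of the golgins, had 32 and 30 counts at 0 h and 51 and 63 at 6 h (9.62 and 8.19 against 8.57 and 11.2 CPM). Its log2 fold change was 0.15 (SE 0.23, adjusted p = 0.810, edgeR) with overlapping groups.

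Golga5 encodes golgin-84, a membrane-spanning golgin that receives COPI vesicles moving within the Golgi stack. Its counts were 57 and 76 at 0 h and 153 and 108 at 6 h (17.1 and 20.7 against 25.7 and 19.2 CPM). The depletion replicates differed by more than the group means, and the log2 fold change was 0.25 (SE 0.17, adjusted p = 0.511, edgeR). Golga3, golgin-160, had 176 and 145 counts at 0 h and 289 and 260 at 6 h. At 52.9 and 39.6 CPM, its controls lay on either side of the depletion libraries at 48.5 and 46.3 CPM. Its log2 fold change was 0.05 (SE 0.12, adjusted p = 0.903, edgeR).

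Gcc2 encodes GCC185, a trans-Golgi golgin that receives carriers from endosomes. It had 122 and 173 counts at 0 h and 311 and 286 at 6 h, or 36.7 and 47.2 against 52.2 and 50.9 CPM. Both depletion libraries were above both controls, but the log2 fold change of 0.29 (SE 0.11) did not pass (adjusted p = 0.191, edgeR). The control libraries decided this value, since without control replicate 2 the change was 0.49 and passed (adjusted p = 0.026), and without control replicate 1 it was 0.13 (adjusted p = 0.773). Over the other settings tried, the adjusted p of Gcc2 ran up to 1.00.

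Uso1, which encodes p115, the tether that links ER-derived and COPI vesicles to the cis-Golgi, was among the most strongly covered genes of the group. Its counts were 283 and 329 at 0 h and 590 and 564 at 6 h (85.0 and 89.8 against 99.1 and 100.4 CPM). The depletion libraries were slightly above the controls, with a log2 fold change of 0.19 (SE 0.08, adjusted p = 0.220, edgeR). Gorasp2, which encodes GRASP55, a stacking and ribbon-linking protein of the Golgi cisternae, had 311 and 334 counts at 0 h and 570 and 569 at 6 h. At 93.5 and 91.2 against 95.8 and 101.3 CPM it was near level, with a log2 fold change of 0.09 (SE 0.08, adjusted p = 0.609, edgeR). Copa encodes the alpha subunit of the COPI coat. It had 66 and 58 counts at 0 h and 92 and 96 at 6 h (19.8 and 15.8 against 15.5 and 17.1 CPM), and its log2 fold change of -0.13 (SE 0.17) did not pass (adjusted p = 0.785, edgeR).

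These 8 genes had a median log2 fold change of 0.17, with 1 of the 8 (Copa) below 0. Over all genes tested, 5995 of 11853 were below 0 and the median was -0.002. The median was -0.001 over the 3997 genes with spans between the shortest and longest of the 8. The recovered size factors moved the median over all genes to -0.10 and turned Golga3 (-0.06) and Gorasp2 (-0.01) below 0. The lowest bound of their 95% intervals was -0.48 (Copa), so that in each of the 8 the interval left out a 2-fold fall. The widest interval was that of Golga2, from -0.26 to 0.97.

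**Figure D2:**
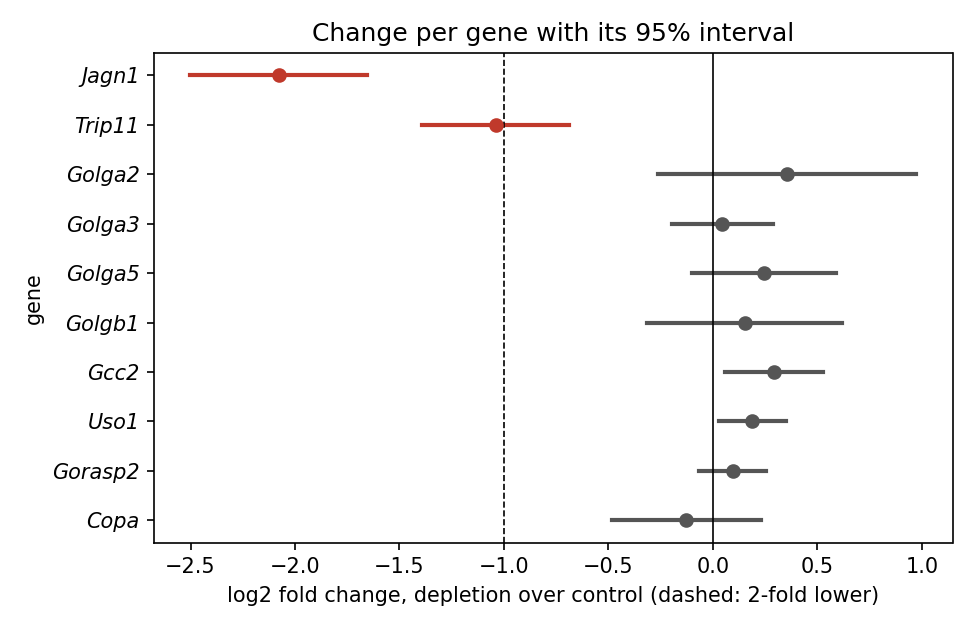
Log2 fold change of depletion over control for the 10 genes, with points the fitted values and bars their 95% intervals over 2 against 2 libraries. Jagn1 lies at -2.08 and Trip11 at -1.04, while the intervals of the other 8 all end above the dashed 2-fold line, the lowest at -0.48 (Copa). The bars of Jagn1 and Trip11 do not allow for their choice on this contrast.

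Levels can be set beside each other only per length. In CPM per kb of the GENCODE gene span, Jagn1 was the densest of the 10 in the controls at 3.83, over a span of 5.7 kb that is also the shortest of the group. It was followed by Gorasp2 at 1.81, Uso1 at 1.35, Golga3 at 0.929, Gcc2 at 0.837, Golga5 at 0.658, Copa at 0.448, Trip11 at 0.285, Golga2 at 0.231 and Golgb1 at 0.154. After depletion Jagn1, at 0.904 CPM per kb, was below Gorasp2 (1.93), Uso1 (1.54), Gcc2 (1.03) and Golga3 (0.953). In the controls, Golga3 and Gcc2 were the one pair of neighbours in this order whose libraries overlapped, and after depletion Jagn1 overlapped both of its neighbours, Golga3 above it and Golga5 below it. Trip11, at 0.139 after depletion over 79.2 kb, was the lowest of the 10, below Golgb1 at 0.171. The table gives 1 count per gene, so polymerase near the start and along the gene body could not be separated.

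The nearest genes of the count table on each side of Jagn1 and Trip11 were looked up. Genes absent from that table were passed over, so these need not be the adjacent genes. Rpusd3, 23.2 kb to the left of Jagn1, had 3 counts in each library and was not tested. Il17rc, 23.2 kb to the right of Jagn1, had 23 and 26 counts at 0 h and 27 and 37 at 6 h (log2 fold change -0.34, SE 0.27, adjusted p = 0.590, edgeR). Atxn3, whose end lies 5.6 kb upstream of the Trip11 start on the same strand, had 164 and 168 counts at 0 h and 274 and 207 at 6 h, a log2 fold change of -0.19 (SE 0.12, adjusted p = 0.443, edgeR). On the other side the next gene in the table, D130020L05Rik, is 745.1 kb away and had a log2 fold change of -0.35 (SE 0.14, adjusted p = 0.199, edgeR). None of the 3 tested neighbours passed.

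Pattern likeness was measured as the Euclidean distance between log2 CPM values of the 4 libraries, each gene centred on its own mean. The genes nearest to Jagn1 were Nek4 (distance 0.223, log2 fold change -2.10), Timm10 (0.259, -1.87) and Elac1 (0.307, -2.22). Those nearest to Trip11 were Ifitm3 (0.076, -1.27), Fyttd1 (0.103, -1.06) and Srp68 (0.106, -0.99). Ifitm3 rested on 8 to 13 counts per library and did not pass (adjusted p = 0.118, edgeR). Elac1 rested on 7 to 22 counts per library. None of these 6 genes belongs to the tethering lists, and the libraries they are compared over are the same 4.

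The wider pathway was covered by 10 lists of 112 genes, of which 107 were in the table and 105 were tested. Of these, 1 was lower and 1 was higher at an adjusted p under 0.05, against 1.4% and 1.11% of all genes, and 0 changed by 2-fold, at adjusted or unadjusted p. At an unadjusted p under 0.05, 4 were lower and 10 higher in edgeR, beside 7.66% and 8.53% of all genes, and DESeq2 called 0. The median log2 fold change of the 105 genes was 0.03, with 45 below 0, beside 5995 of all 11853 genes tested. Rint1 and Cog5 were the genes that passed.

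Rint1, a subunit of the NRZ complex that tethers COPI vesicles at the ER, fell. It had 121 and 140 counts at 0 h and 111 and 134 at 6 h, or 36.4 and 38.2 against 18.6 and 23.8 CPM. Both depletion libraries were below both controls, with means of 37.3 ± 1.31 and 21.2 ± 3.68 CPM (SD, n = 2 each) and a log2 fold change of -0.82 (SE 0.14, adjusted p = 0.000406, edgeR). Without depletion replicate 1 Rint1 did not pass, and DESeq2 did not call it either. The other NRZ subunits, Nbas (-0.09, adjusted p = 0.510) and Zw10 (0.26, adjusted p = 0.459), did not pass in edgeR. The RefSeq promoter of Rint1 lacks ATAGAG but holds CTAGAG on the opposite strand, 37 bases before the start, shown here in capitals within chr5:23787591-23787740 (plus strand). CTAGAG was also in 11 other promoters of these lists, or 12 of 89 in all (13.5%), beside 17.3% of all tested symbols with a promoter. None of the genes of those 11 promoters passed in edgeR. ATAGAG was in 3 of 89 (3.37%), beside 8.41% of all tested symbols with a promoter. Whether the match bears on the fall of Rint1 was not tested.
Rint1: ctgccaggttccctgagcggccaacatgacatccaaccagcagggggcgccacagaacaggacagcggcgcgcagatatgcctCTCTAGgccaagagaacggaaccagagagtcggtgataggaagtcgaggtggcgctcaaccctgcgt

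Cog5, a subunit of the COG complex that tethers vesicles recycling within the Golgi, rose slightly. It had 867 and 1009 counts at 0 h and 1857 and 1741 at 6 h (260.6 and 275.4 against 312.0 and 309.9 CPM). The log2 fold change was 0.21 (SE 0.06, adjusted p = 0.0376, edgeR), and this call was lost with library totals, with the recovered size factors, in DESeq2 and without control replicate 1, depletion replicate 1 or depletion replicate 2. The other 7 COG subunits ranged from -0.24 to 0.36 and did not pass.

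In the remaining 8 lists, with 94 genes tested, 0 genes passed in either direction in edgeR or DESeq2, while 3 were lower and 9 higher at an unadjusted p under 0.05 in edgeR (7.66% and 8.53% of all genes). The 12 other golgins and Golgi matrix genes had a median log2 fold change of 0.05, the 12 TRAPP subunits tested -0.03 and the 5 GARP and EARP subunits 0.06. Coat genes were likewise near the centre of all genes, at a median of -0.06 for the 7 other COPI subunits and 0.08 for the 13 COPII genes. The 18 small GTPases and their regulators had a median of 0.07, the 12 SNAREs of the early secretory pathway -0.06 and the 15 cargo receptors tested 0.01. The lowest value in these lists was -0.52, among the SNAREs, and the highest was 0.67, among the COPII genes.

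**Figure D3:**
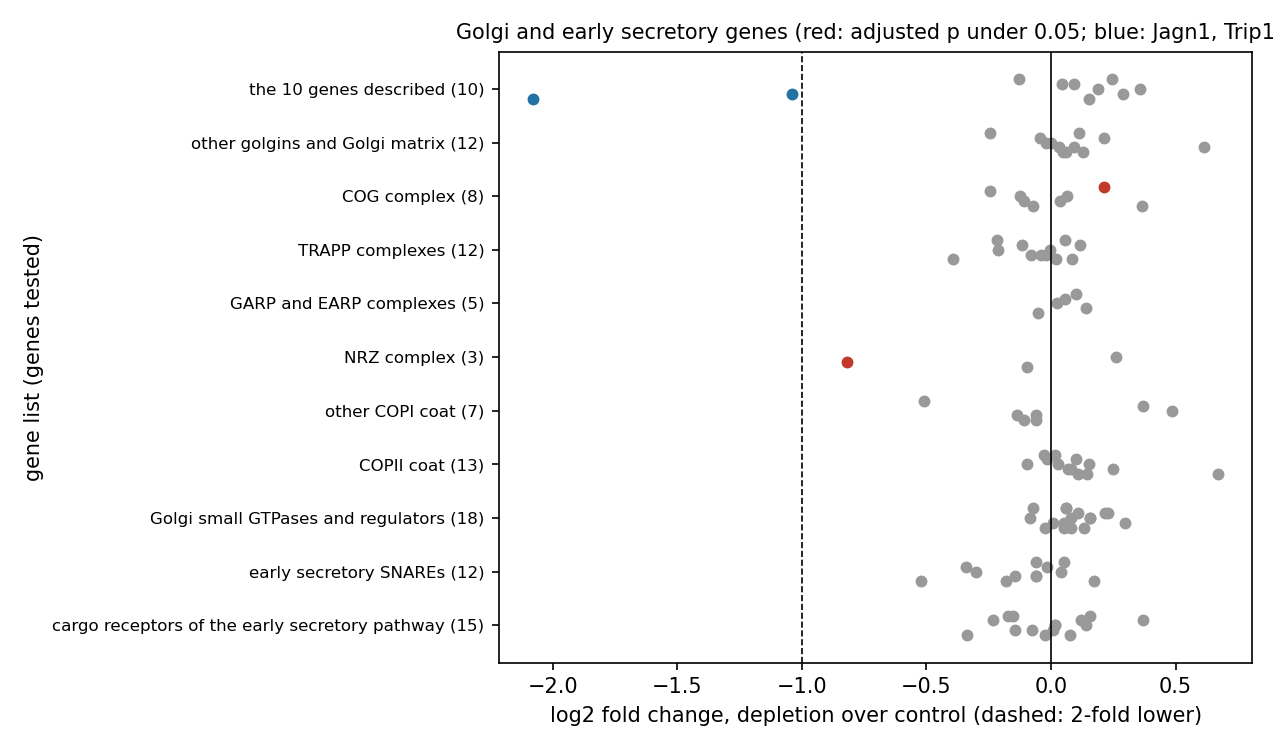
Log2 fold change of depletion over control for each tested gene of the 10 genes described and of 10 lists, with the number tested in brackets; red marks an adjusted p under 0.05 over all genes and blue marks Jagn1 and Trip11, which were chosen on this contrast. Outside Jagn1 and Trip11, the red points are Rint1 (-0.82) and Cog5 (0.21).

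**Figure D4:**
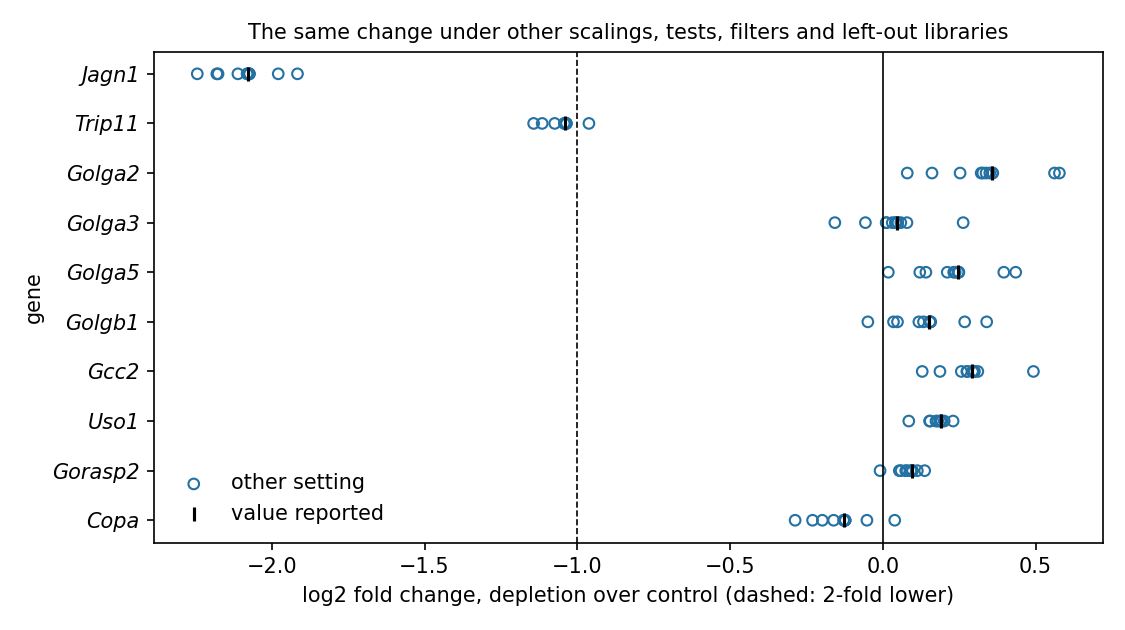
Log2 fold change of each of the 10 genes as reported (bars) and under the other scalings, tests, filters, the replicate block and with each library left out (circles). Jagn1 stays between -2.24 and -1.92 and Trip11 between -1.14 and -0.96, with 1 circle of Trip11 short of the dashed 2-fold line.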

How the data were processed

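PRO-seq was performed on 2 control (0 h) and 2 depletion (6 h IAA) libraries. Per the labels and methods, the authors trimmed adapters (cutadapt 1.18), mapped reads to mm10 with Bowtie 1.2.2 keeping unique best positions, collapsed them by molecular identifier and counted nascent 3′ ends per gene over CAGE-corrected gene models. The deposited counts are whole numbers and are not normalized. From the authors' DESeq2 table, whose fold changes and p-values were not used, the deposited mean normalized signal served to recover size factors (0.699, 0.740, 1.32 and 1.24) as an alternative scaling. The methods describe spike-in scaling with 1 factor per condition. How the recovered factors arose was not resolved here.

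Counts were filtered with filterByExpr (minimum count 10, minimum total 15), scaled with TMM and fitted with edgeR 4.0.16 in R 4.3.3 (quasi-likelihood test, two-sided, condition as the only term, Benjamini-Hochberg adjustment over 11853 genes). A gene was called past an adjusted p of 0.05, with or without a 2-fold threshold. The SE of a log2 fold change is that implied by the F statistic, and its 95% interval uses the fit's degrees of freedom. Alternatives were other scalings, DESeq2 1.42.0, limma-voom (limma 3.58.1), other filters, a replicate block and leaving out each library. Counts of 11796 genes were simulated with the same dispersion for every gene. At an adjusted p under 0.05 with no fold threshold, the test recovered 83% of 2-fold and 99% of 4-fold changes. Of its calls, 4.71% were false. These shares do not hold for calls that also need a 2-fold change, or for genes that vary more.

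The members and lists were chosen with earlier results of these data known. Genes were named by rule: the members, Zfp574, list genes past the threshold, neighbours of Jagn1 and Trip11, and the 3 genes most alike in pattern to each. Markers, genes at the 2-fold line and subunits of the same complexes were named besides. Positions came from GENCODE M21 on mm10 (12474 of 12486 identifiers matched), which lacks the corrected start sites. Promoters came from RefSeq (GRCm38.p6), matched by symbol for 9295 of 11849 tested symbols. Total counts ran from 3298864 to 6045216, and intervals on counts cover counting error only.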

Additional observations from a re-analysis of the deposited data

How the results depend on the processing

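Jagn1 and Trip11 kept their direction in every setting that tested them, 11 for each. Their SEs were wider in DESeq2 (0.34 for Jagn1 and 0.29 for Trip11) than in edgeR (0.21 and 0.17). With a mean count of at least 100 neither was tested, so 0 of the 10 genes were called with or without the fold threshold, and 8 genes were lower by 2-fold in the whole table. Dropping the fold threshold gave 166 lower genes. With that threshold kept, 28 genes were lower in DESeq2 and 57 with the recovered size factors, against 38 in the main fit. When 1 library was left out at a time, and the lone library of a group is assumed to vary like the others, from 1 to 2 of the 10 genes were called lower by 2-fold, since Trip11 was at -0.96 without depletion replicate 1, and from 0 to 1 were higher (Gcc2). Golga3 turned to -0.057 and Gorasp2 to -0.009 with the recovered size factors. Across the left-out libraries Golga3 ranged from -0.157 (without control replicate 2) to 0.263, Golgb1 from -0.049 (without depletion replicate 2) to 0.34, and Copa from -0.287 to 0.039 (without control replicate 1); none of these 4 genes passed in any setting. Over the 105 pathway genes, 3 were lower with the recovered factors (Rint1, Gosr1 and Lman2) and 0 in DESeq2, and from 0 to 1 across the left-out libraries. Higher genes numbered 0 with library totals, the recovered factors and DESeq2, and from 0 to 1 across the left-out libraries. The cause of these differences was not tested, apart from the shift of all genes to a median of -0.10 that the recovered factors give by construction.

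The main fit did not pair same-numbered replicates. The sample titles and the methods state no pairing. The correlation of replicate deviations was 0.03, which cannot decide the question because the deviations also hold counting noise. With the replicate block 2 of the 10 genes were lower and 0 were higher, as without it, and the whole table had 300 lower and 366 higher genes with no fold threshold, against 166 and 132. Those counts were 698 and 49 with the recovered factors, 202 and 64 with library totals, and 60 and 14 in DESeq2. Leaving out control replicate 2 gave 227 and 271, depletion replicate 1 gave 76 and 20, and depletion replicate 2 gave 79 and 45. Depth limits Golga2 most, at 15 to 42 counts per library.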
